A study of Mus musculus with 14 samples.

Results

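The genes that move salt and water out of the air spaces of the mouse lung were followed in 14 arrays. They were chosen by name, as every probe whose current or older symbol was Aqp1, Aqp4, Aqp5, Scnn1a, Scnn1b, Scnn1g, Atp1b1, Cftr or Nedd4l. All 9 were measured, each by 1 probe, among 13923 genes named on the array. Lung RNA came from 4 jnk1-/- mice ventilated at a tidal volume of 10 ml/kg for 8 hours with a positive end-expiratory pressure of 2 cmH2O, 3 jnk1-/- control mice, 4 wild-type mice ventilated in the same way and 3 wild-type control mice. All were adult mice of the C57/BL6 background, and those called jnk1-/- lack c-Jun-NH2-terminal kinase-1 in every tissue. According to the methods, controls were anesthetized with ketamine and acepromazine and killed at once, whereas ventilated mice also had a tracheostomy, room air, hourly recruitment and hourly pancuronium bromide, so that ventilation cannot be told apart from the surgery, the drugs and the hours under anesthesia. The labels give 1 array per animal, and p-values measure the spread between these animals.

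Air spaces are kept nearly dry by active transport of sodium across the alveolar epithelium. Sodium enters the cells from the air side through the epithelial sodium channel ENaC, is pumped out on the blood side by the Na,K-ATPase, and water follows, in part through aquaporins. Chloride takes a parallel route through channels such as CFTR, and the ubiquitin ligase Nedd4-2 removes ENaC from the cell surface.

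Values are log2 intensities, scaled so that arrays can be compared for 1 probe but not 1 probe with another. A gene was called where the limma adjusted p, taken over all 19621 probes, was under 0.05. On wild-type control arrays 2 and 3, 10.7% and 6.98% of probes lay at the lowest deposited value, against 1.86% to 4.52% on the other 12 arrays. The probe of Mapk8, which encodes JNK1, lay at the floor of the authors' own normalized table (3.12) on 3 of 4 jnk1-/- ventilated and 3 of 3 jnk1-/- control arrays, and on 2 of 4 wild-type ventilated and 1 of 3 wild-type control arrays. Which stretch of Mapk8 this probe covers was not stated in the sources, so it checks the deletion little. Defining markers of lung epithelium were present: 9 type 1 alveolar genes summed to a log2 level of 13.36 to 14.41 over the 14 arrays, 10 type 2 alveolar genes to 14.75 to 15.53, and 10 airway genes to 14.80 to 15.79. The RNA was of whole lung, where fewer cells of a type and less RNA per cell cannot be told apart.

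Ventilation of jnk1-/- lungs raised 3 of the 9 genes, the pump subunit Atp1b1, the ligase Nedd4l and the ENaC subunit Scnn1a, and lowered none, where 12.1% of all probes were called, 7.04% higher and 5.06% lower. The log2 difference was positive for 8 of the 9 genes (all 9 with quantile normalization, fast cyclic loess or median centring), with a median of 0.57 against -0.04 over all probes. In 6 of the 9 genes, all ventilated arrays lay above all jnk1-/- control arrays, as they did for 12.6% of all probes. In wild-type lungs, ventilation gave no call among the 9 genes with limma, where 3.43% of all probes were called. At an unadjusted p under 0.05, 2 of the 9 passed, against 3920 of all 19621 probes, Scnn1b with a negative and Atp1b1 with a positive difference, and for these 2 genes the groups did not overlap, as for 22.0% of all probes. The median log2 difference in wild-type lungs was 0.30 against 0.11 over all probes, and 0.14 without Aqp4, but its sign turned with the scaling: it was 0.03 with quantile normalization, 0.22 with fast cyclic loess, -0.01 with median centring and -0.08 in the authors' normalized table, where 3 of the 9 differences were positive, against 5 here. By the methods' t-test, the counts were 0 in jnk1-/- lungs and 1 in wild-type lungs.

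**Figure D1:**
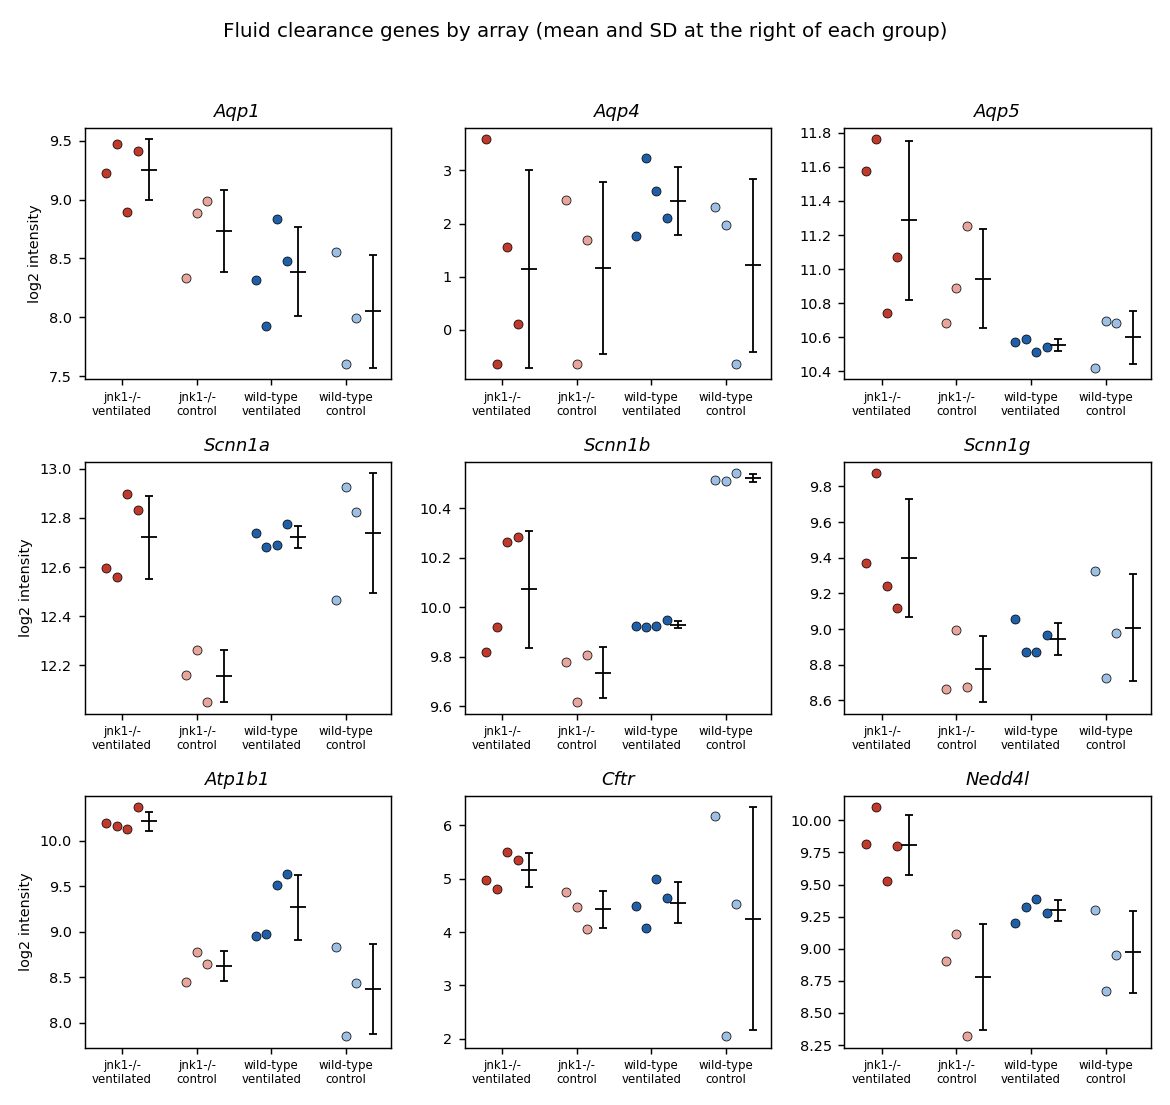
Log2 intensity (vertical axes, a separate scale for each gene) of the 9 fluid clearance genes in each group of mice (horizontal axes). Points are single arrays, and the bar beside them is the mean ± SD (n = 4 ventilated and 3 control mice per genotype). Atp1b1 lies between 10.13 and 10.37 on all 4 jnk1-/- ventilated arrays, above the other 10 arrays.

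Atp1b1 encodes the beta1 subunit of the Na,K-ATPase, which carries the pump to the basolateral membrane. Its log2 intensity was 10.20, 10.17, 10.13 and 10.37 in jnk1-/- ventilated lungs, against 8.45, 8.78 and 8.65 in jnk1-/- controls. It was 8.95, 8.97, 9.51 and 9.63 in wild-type ventilated lungs, against 8.83, 7.85 and 8.43 in wild-type controls. In both genotypes the ventilated arrays all lay above their controls, and the jnk1-/- ventilated arrays were the highest of all 14. The log2 difference on ventilation was 1.59 in jnk1-/- lungs (standard error 0.25, 3.01-fold, adjusted p = 0.0025 from limma). In wild-type lungs it was 0.90 (standard error 0.25, 1.86-fold, adjusted p = 0.0683), which did not pass here but did in 3 of 14 alternative settings. The difference between these effects was 0.69 (standard error 0.35, adjusted p = 0.417 from limma), so a larger rise in jnk1-/- lungs was not shown. The jnk1-/- call held without any 1 of the 7 arrays (adjusted p of 0.0143 at most). The wild-type difference passed without wild-type control replicate 1 (1.13, adjusted p = 0.0321) and shrank to 0.44 (adjusted p = 0.662) without wild-type control replicates 2 and 3 together, a choice made after seeing the data. After ventilation, Atp1b1 was higher in jnk1-/- than in wild-type lungs by 0.95 on the log2 scale with no overlap, which missed the threshold (adjusted p = 0.110). The order of the group means was 10.21 ± 0.10 in jnk1-/- ventilated, 9.27 ± 0.36 in wild-type ventilated, 8.63 ± 0.17 in jnk1-/- control and 8.37 ± 0.49 in wild-type control lungs (SD). The arrays of the control groups at the foot of that order overlapped (difference 0.25, adjusted p = 0.610).

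Scnn1a, Scnn1b and Scnn1g encode the alpha, beta and gamma subunits of ENaC, of which alpha forms a conducting channel most readily and beta and gamma raise its current. The 3 genes did not have 1 pattern over the groups. Scnn1a was 12.60, 12.56, 12.90 and 12.83 in jnk1-/- ventilated lungs and 12.16, 12.26 and 12.05 in jnk1-/- controls. It was 12.74, 12.68, 12.69 and 12.78 in wild-type ventilated lungs and 12.46, 12.93 and 12.82 in wild-type controls. The jnk1-/- controls were the only group that lay apart, below the arrays of each other group. Ventilation raised Scnn1a in jnk1-/- lungs by 0.57 (standard error 0.16, 1.48-fold, adjusted p = 0.0385 from limma), against a difference of -0.02 in wild-type lungs (standard error 0.16, adjusted p = 0.970). The call was lost on leaving out any 1 of the 7 arrays, with adjusted p between 0.0507 and 0.0999. Of the other group means, 12.72 ± 0.17 in jnk1-/- ventilated, 12.72 ± 0.04 in wild-type ventilated and 12.74 ± 0.24 in wild-type control lungs (SD) lay within 1 SD of each other.

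Scnn1b, the beta subunit, differed between the genotypes before ventilation. Its log2 intensity was 9.78, 9.62 and 9.81 in jnk1-/- controls, against 10.52, 10.51 and 10.54 in wild-type controls. It was 9.82, 9.92, 10.26 and 10.28 in jnk1-/- ventilated lungs, against 9.93, 9.92, 9.92 and 9.95 in wild-type ventilated lungs. The wild-type controls were the highest arrays and lay apart from each other group, and after ventilation the genotypes overlapped. In controls, Scnn1b was lower in jnk1-/- lungs with a log2 difference of -0.79 (standard error 0.16, 1.73-fold lower, limma adjusted p = 0.0226). It was the 1 called gene of the 9 in that comparison, where 1.81% of all probes were called lower and 4.02% in either direction. The call was lost without wild-type control replicate 2 (adjusted p = 0.0774) or 3 (0.0756) or jnk1-/- control replicate 1 (0.0598) or 2 (0.0754), with differences of -0.73 to -0.81, and without both wild-type control replicates 2 and 3 it was -0.78 (adjusted p = 0.280).

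Ventilation went with Scnn1b differences of opposite sign in the genotypes. The log2 difference was 0.34 in jnk1-/- lungs (standard error 0.15, adjusted p = 0.179) and -0.59 in wild-type lungs (standard error 0.15, adjusted p = 0.0553). Neither passed the threshold, although all ventilated arrays lay on 1 side of their controls in each genotype, the nearest in jnk1-/- lungs being 9.82 and 9.81. The difference between these effects was 0.93 (standard error 0.21, adjusted p = 0.111, unadjusted p = 0.0010). In the authors' normalized table it was 0.98 and passed (adjusted p = 0.0115), as did the wild-type difference there (-0.64, adjusted p = 0.0073). Over the alternative settings, the difference between the effects passed in 2 of 12 and the wild-type difference in 8 of 14. On leaving out 1 array, neither ever passed, with limma adjusted p of 0.0916 to 0.219 and 0.0869 to 0.154 in the same order. Group means were 10.07 ± 0.24 in jnk1-/- ventilated, 9.74 ± 0.10 in jnk1-/- control, 9.93 ± 0.01 in wild-type ventilated and 10.52 ± 0.02 in wild-type control lungs (SD). Wild-type controls were thus highest and jnk1-/- controls lowest, and between them the ventilated groups did not differ beyond their spread (0.14, adjusted p = 0.797).

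Scnn1g, the gamma subunit, was 9.37, 9.87, 9.24 and 9.12 in jnk1-/- ventilated lungs and 8.67, 8.99 and 8.67 in jnk1-/- controls, against 9.06, 8.87, 8.87 and 8.97 in wild-type ventilated and 9.33, 8.72 and 8.98 in wild-type control lungs. The jnk1-/- ventilated arrays lay above their controls and above the wild-type ventilated arrays. The log2 difference on ventilation was 0.62 in jnk1-/- lungs (standard error 0.21, adjusted p = 0.0746) and -0.07 in wild-type lungs (standard error 0.21, adjusted p = 0.899), and neither passed.

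**Figure D2:**
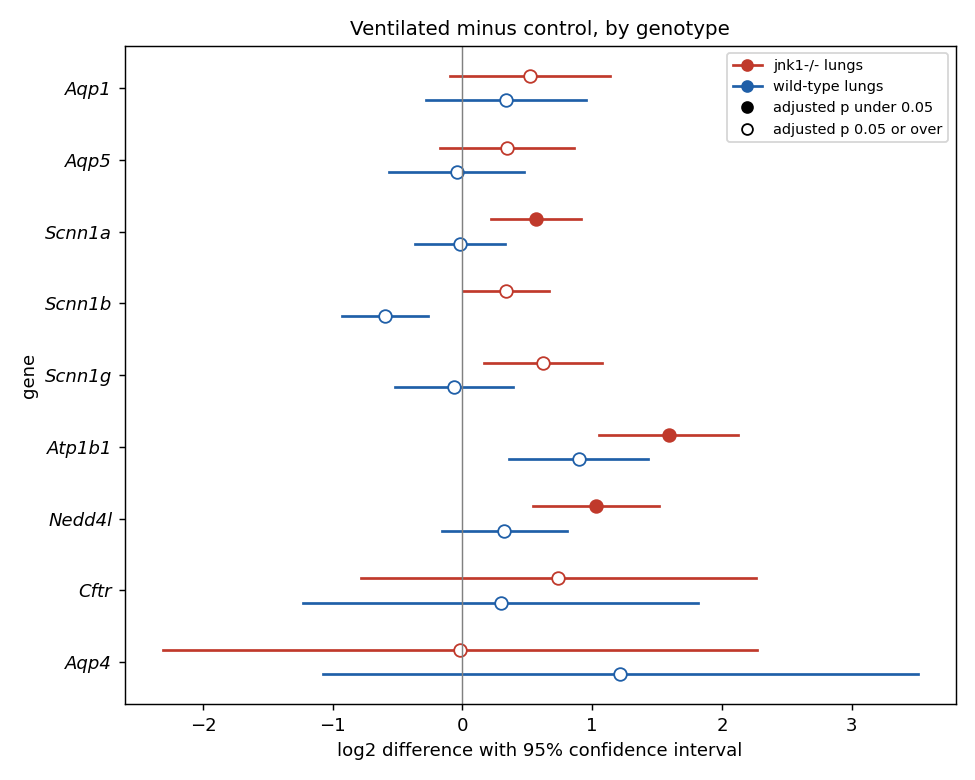
Log2 difference of ventilated minus control lungs (horizontal axis) for each gene (vertical axis), with its 95% confidence interval from limma, in jnk1-/- (red) and wild-type (blue) lungs; filled points passed the adjusted threshold of 0.05. The 3 filled points are Scnn1a, Atp1b1 and Nedd4l in jnk1-/- lungs, and Scnn1b has 0.34 in jnk1-/- and -0.59 in wild-type lungs.

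Nedd4l encodes Nedd4-2, the ligase that marks ENaC for removal. Its log2 intensity was 9.82, 10.10, 9.53 and 9.80 in jnk1-/- ventilated lungs, against 8.91, 9.11 and 8.32 in jnk1-/- controls. It was 9.20, 9.32, 9.39 and 9.28 in wild-type ventilated lungs, against 9.30, 8.67 and 8.95 in wild-type controls. The jnk1-/- ventilated arrays were the highest of the 14, and the wild-type groups overlapped. Ventilation raised Nedd4l in jnk1-/- lungs by 1.03 (standard error 0.22, 2.04-fold, adjusted p = 0.0122 from limma), and this call held without any 1 of the 7 arrays (adjusted p of 0.0362 at most). In wild-type lungs the log2 difference was 0.32 (standard error 0.22, adjusted p = 0.459), and the difference between the effects was 0.71 (standard error 0.31, adjusted p = 0.359). Group means were 9.81 ± 0.23 in jnk1-/- ventilated, 8.78 ± 0.41 in jnk1-/- control, 9.30 ± 0.08 in wild-type ventilated and 8.97 ± 0.32 in wild-type control lungs (SD), and the arrays of wild-type controls overlapped with those of both wild-type ventilated lungs and jnk1-/- controls.

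Of the water channels, Aqp5 lines the air side of type 1 cells and Aqp1 the capillary endothelium. Aqp1 was 9.23, 9.47, 8.90 and 9.42 in jnk1-/- ventilated lungs, against 8.32, 7.92, 8.83 and 8.48 in wild-type ventilated lungs. It was 8.33, 8.88 and 8.99 in jnk1-/- controls, against 8.56, 7.60 and 7.99 in wild-type controls. The genotypes did not overlap after ventilation and overlapped in controls. The log2 difference of jnk1-/- minus wild-type lungs was 0.87 after ventilation (standard error 0.26, adjusted p = 0.222 from limma) and 0.68 in controls (standard error 0.30, adjusted p = 0.215).

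Aqp5 was 11.57, 11.76, 10.74 and 11.07 in jnk1-/- ventilated lungs, against 10.57, 10.59, 10.51 and 10.54 in wild-type ventilated lungs. It was 10.68, 10.89 and 11.26 in jnk1-/- controls and 10.42, 10.70 and 10.68 in wild-type controls. The wild-type ventilated arrays spanned a narrow range just under the lowest jnk1-/- ventilated array, and ventilated and control lungs overlapped in both genotypes. After ventilation the log2 difference between genotypes was 0.73 (standard error 0.22, adjusted p = 0.221 from limma). On ventilation it was 0.34 in jnk1-/- lungs (adjusted p = 0.403) and -0.04 in wild-type lungs (adjusted p = 0.939).

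Aqp4, a channel of airway cells in the lung, lay at the authors' floor on all 14 arrays, so its values of -0.65 to 3.59 order no groups. Cftr, the cAMP-gated chloride channel, was 4.98, 4.81, 5.50 and 5.35 in jnk1-/- ventilated lungs and 4.74, 4.47 and 4.06 in jnk1-/- controls. It was 4.49, 4.08, 5.00 and 4.63 in wild-type ventilated lungs and 6.18, 2.05 and 4.53 in wild-type controls. The wild-type controls held both the highest and the lowest array, and the lowest was at the authors' floor. The log2 difference on ventilation was 0.74 in jnk1-/- lungs (standard error 0.70, adjusted p = 0.565 from limma) with no overlap, and 0.30 in wild-type lungs (standard error 0.70, adjusted p = 0.859). The sign in wild-type lungs turned with 1 array, since leaving out each array in turn gave -0.80 to 1.26, and it was -0.45 in the authors' normalized table (adjusted p = 0.684), so no direction was read from it.

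After ventilation no gene of the 9 was called between jnk1-/- and wild-type lungs with limma, where 0.612% of all probes were, and the methods' t-test called none either. At an unadjusted p under 0.05, 5 genes passed, against 10.7% of all probes, and for the same 5 genes, Aqp1, Aqp5, Scnn1g, Atp1b1 and Nedd4l, all jnk1-/- ventilated arrays lay above all wild-type ventilated arrays, as they did for 3.83% of all probes. Their log2 differences ran between 0.46 (Scnn1g, standard error 0.19, adjusted p = 0.418) and 0.95 (Atp1b1, standard error 0.23, adjusted p = 0.110). In controls, the median log2 difference of the 9 genes was -0.04 against 0.12 over all probes (-0.22 to -0.30 under the other scalings). That -0.04 is the value of Aqp4, which lay at the authors' floor. Without Aqp4 the median was -0.01 (-0.07 to -0.46 under the other scalings), so its size depended on the scaling. The control arrays of the genotypes did not overlap for Scnn1a and Scnn1b, both lower in jnk1-/- controls, as they were for 11.6% of all probes. For Scnn1a this was -0.58 (standard error 0.17, adjusted p = 0.0788 from limma), which passed without wild-type control replicate 1 (-0.72, adjusted p = 0.0387) and was -0.31 (adjusted p = 0.688) without both wild-type control replicates 2 and 3. For the difference of the ventilation effect, jnk1-/- minus wild-type, no gene was called with limma, where 0.382% of all probes were, and 4 had an unadjusted p under 0.05 (Scnn1a 0.58, Scnn1b 0.93, Scnn1g 0.69 and Nedd4l 0.71 on the log2 scale), against 13.3% of all probes. All these comparisons share control or ventilated arrays.

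**Figure D3:**
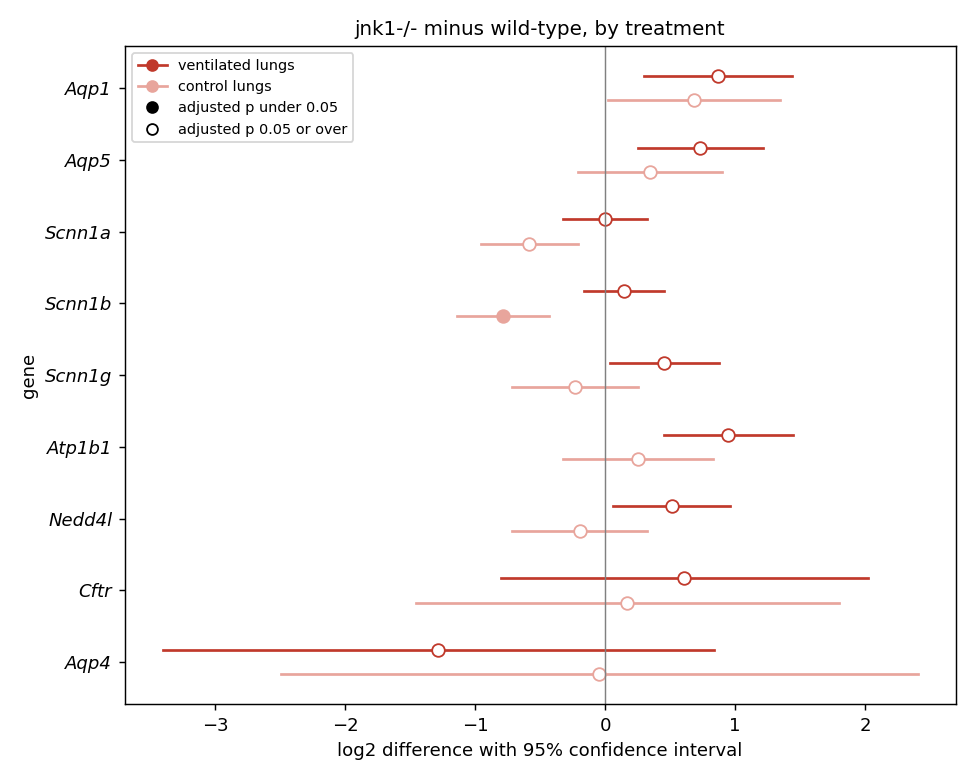
Log2 difference of jnk1-/- minus wild-type lungs (horizontal axis) for each gene (vertical axis), with its 95% confidence interval from limma, in ventilated (dark red) and control (light red) lungs; the filled point passed the adjusted threshold of 0.05. Only Scnn1b in controls, at -0.79, is filled, and Aqp1, Aqp5, Scnn1g, Atp1b1 and Nedd4l lie between 0.46 and 0.95 in ventilated lungs.

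Promoter sequence, from 250 bases before to 50 after a start site, was taken from RefSeq (GRCm38.p6) and matched for 6 of the 9 genes. The regions of 3 genes are shown, because Atp1b1 and Scnn1b were called and Scnn1g lies beside Scnn1b on chromosome 7 with other values over the groups. They are Atp1b1 on the minus strand (chr1:164458306-164458605), Scnn1b on the plus strand (chr7:121864788-121865087) and Scnn1g on the plus strand (chr7:121734229-121734528). Capitals mark a GC box, GGGCGG on either strand.
Atp1b1: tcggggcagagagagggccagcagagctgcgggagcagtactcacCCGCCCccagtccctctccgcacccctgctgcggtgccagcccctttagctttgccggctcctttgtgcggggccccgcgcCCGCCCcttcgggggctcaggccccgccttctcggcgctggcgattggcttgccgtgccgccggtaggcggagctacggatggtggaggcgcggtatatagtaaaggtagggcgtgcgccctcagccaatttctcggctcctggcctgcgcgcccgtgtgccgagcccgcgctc
Scnn1b: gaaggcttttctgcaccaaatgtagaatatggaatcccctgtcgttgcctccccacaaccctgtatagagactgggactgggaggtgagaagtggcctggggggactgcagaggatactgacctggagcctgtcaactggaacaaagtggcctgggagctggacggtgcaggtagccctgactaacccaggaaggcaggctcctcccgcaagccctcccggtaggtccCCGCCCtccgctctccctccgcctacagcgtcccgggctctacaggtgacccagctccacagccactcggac
Scnn1g: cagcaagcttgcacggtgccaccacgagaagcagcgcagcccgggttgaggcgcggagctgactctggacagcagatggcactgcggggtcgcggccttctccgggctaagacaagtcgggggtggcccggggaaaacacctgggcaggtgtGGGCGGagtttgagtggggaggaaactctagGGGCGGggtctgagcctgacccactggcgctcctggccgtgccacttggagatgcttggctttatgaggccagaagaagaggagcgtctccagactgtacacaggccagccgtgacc
Counted from the start site of each window (the base after the first 250), the GC boxes begin at -205 and -124 in Atp1b1, at -22 in Scnn1b and at -98 and -67 in Scnn1g. That site was the outermost start of the gene in RefSeq for the other 5 genes matched, and for Scnn1g it lay 59 bases inside it (121734479, against a gene start of 121734420). All 6 matched promoters held a GC box, as did 35.7% of the 32851 promoters of the table. The AP-1 letters TGANTCA, to which Jun proteins bind, were in none of the 6 and in 7.81% of all promoters, and the paired glucocorticoid receptor half-sites ACANNNTGT in none of the 6 and in 6.85% of all. Both strands were searched, and these windows hold only 300 bases.

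Around the 9 genes, 67 further genes of fluid and ion transport were listed, of which 50 were measured. In jnk1-/- lungs ventilation raised 5 and lowered 3 of the 50, with a median log2 difference of 0.05, where 7.04% of all probes were called higher and 5.06% lower, shares near those of the list; the 8 calls became 3 to 6 on leaving out 1 array and 0 with the methods' t-test. In wild-type lungs it raised 1 and lowered none, with a median of 0.12, where 2.20% of all probes were called higher. No gene of the 6 other water channels was called in any of the 5 comparisons with limma, and unadjusted p-values under 0.05 numbered 0 to 2 of 6.

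Among 16 regulators of the sodium channel, Sgk1 was the only gene that limma called raised by ventilation in both genotypes. The paper lists another of them, Hsd11b2, as raised in both, whereas limma on the values scaled here called it in neither. A limma fit of the authors' normalized table called Hsd11b2 in both, with 1.44 in wild-type (adjusted p = 0.0348) and 1.26 in jnk1-/- lungs (adjusted p = 0.0320). Sgk1 encodes the glucocorticoid-induced kinase that phosphorylates Nedd4-2 and so keeps ENaC at the surface. Its log2 intensity was 9.47, 9.82, 9.34 and 8.84 in jnk1-/- ventilated lungs and 8.57, 8.17 and 8.61 in jnk1-/- controls, against 9.13, 8.72, 9.55 and 8.90 in wild-type ventilated and 7.99, 7.77 and 7.89 in wild-type control lungs. Ventilated arrays lay above their controls in both genotypes. The log2 difference was 0.92 in jnk1-/- lungs (standard error 0.25, adjusted p = 0.0361 from limma) and 1.19 in wild-type lungs (standard error 0.25, adjusted p = 0.0263). The jnk1-/- call was lost on leaving out any 1 of its arrays but ventilated replicate 4 (adjusted p between 0.0518 and 0.130), and the wild-type call without control replicate 2 or 3 or ventilated replicate 1 or 3 (adjusted p between 0.0660 and 0.0966). In jnk1-/- lungs the scaffold gene Cnksr3, an aldosterone target that aids ENaC, rose by 0.91 (standard error 0.23, adjusted p = 0.0271), a call lost without any 1 array but jnk1-/- ventilated replicate 3 (adjusted p between 0.0518 and 0.0834). Tsc22d3, the glucocorticoid-induced leucine zipper, rose by 1.04 (standard error 0.27, adjusted p = 0.0285), a call lost without jnk1-/- control replicate 1 or jnk1-/- ventilated replicate 1, 3 or 4 (adjusted p between 0.0520 and 0.116). In wild-type lungs Cnksr3 was -0.20 and Tsc22d3 0.43 in the authors' table (limma adjusted p = 0.634 and 0.353). The difference of the effect there was 1.06 for Cnksr3 and 0.52 for Tsc22d3 (adjusted p = 0.121 and 0.571), and neither passed.

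Of 9 other sodium pump subunits and FXYD regulators, 3 fell in jnk1-/- ventilated lungs and none rose, where 5.06% of all probes were called lower and 7.04% higher. Fxyd6, a small membrane protein that modulates the pump, was 2.38, 3.27, 2.81 and 3.37 in jnk1-/- ventilated lungs, against 5.34, 5.64 and 5.16 in jnk1-/- controls. It was 4.97, 5.26, 5.23 and 4.96 in wild-type ventilated lungs, against 5.30, 4.89 and 5.32 in wild-type controls. The jnk1-/- ventilated arrays lay below the other 10, and 3 of the 4 were at the authors' floor. With these arrays at the floor, the sizes of the differences are not exact. The log2 difference on ventilation was fitted as -2.42 in jnk1-/- lungs (standard error 0.24, adjusted p = 2.16e-04 from limma), and as -2.02 in the authors' table, which holds the 3 arrays at its floor (adjusted p = 4.20e-06), and it was -0.07 in wild-type lungs (adjusted p = 0.914). Between ventilated genotypes it was fitted as -2.15 (adjusted p = 5.97e-04), and the difference of the effect as -2.36 (standard error 0.34, adjusted p = 0.0199), which missed the threshold without wild-type control replicate 2 (0.0579) or jnk1-/- control replicate 2 (0.0567). In the authors' table these were -1.75 and -1.99.

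Atp1b2, the beta2 subunit of the pump, was 5.23, 5.40, 5.43 and 5.09 in jnk1-/- ventilated lungs, against 6.67, 6.08 and 6.46 in jnk1-/- controls, and the groups did not overlap. Its log2 difference was -1.11 (standard error 0.21, limma adjusted p = 0.0062). In the authors' table Atp1b2 was -0.24 on ventilation of wild-type lungs (adjusted p = 0.473), and the difference of the effect was -0.91 (adjusted p = 0.128). There it was higher in jnk1-/- than in wild-type controls by 0.79 (adjusted p = 0.0381), a call in only 1 of 14 alternative settings. Between ventilated genotypes it was -0.12 in that table (adjusted p = 0.935). Fxyd3, another FXYD protein, had a log2 difference of -0.65 (standard error 0.19, adjusted p = 0.0432), a call lost without any 1 array but jnk1-/- control replicate 2 (adjusted p between 0.0593 and 0.126). In wild-type lungs Fxyd3 was not called here but passed in 6 of 14 alternative settings, with -0.76 in the authors' table (limma adjusted p = 0.0147). The difference of the effect for Fxyd3 was 0.09 in that table (adjusted p = 0.875), so its fall was not particular to jnk1-/- lungs. Fxyd2, the gamma subunit of the pump in kidney, was higher in jnk1-/- than in wild-type controls by 1.11 (standard error 0.25, adjusted p = 0.0298), a call lost without any 1 array but jnk1-/- control replicate 3 (adjusted p between 0.0597 and 0.0955).

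Among 19 genes of chloride and other ion transport, 2 were raised by ventilation in jnk1-/- lungs and none by limma in wild-type lungs (6 had an unadjusted p under 0.05), where 7.04% and 2.20% of all probes were called higher in these comparisons. Slc12a2, which encodes the basolateral Na-K-Cl cotransporter that loads cells with chloride, was 8.41, 8.36, 8.82 and 8.66 in jnk1-/- ventilated lungs and 7.69, 7.69 and 7.57 in jnk1-/- controls. The groups did not overlap, and the log2 difference was 0.91 (standard error 0.18, adjusted p = 0.0076 from limma), called without any 1 of the 7 arrays (adjusted p of 0.0276 at most). In wild-type lungs it was 0.12 (adjusted p = 0.762). The difference of the effect for Slc12a2 was 0.78 in the authors' table (limma adjusted p = 0.109), which did not pass. Slc12a4, a K-Cl cotransporter, was 8.28, 7.75, 7.73 and 10.02 in jnk1-/- ventilated lungs and between 6.90 and 7.04 in jnk1-/- controls. The last ventilated array stood far above the others, and the log2 difference of 1.46 (standard error 0.43, adjusted p = 0.0473) was 0.94 without it (adjusted p = 0.0121). The call was lost without any 1 of the 3 jnk1-/- controls or ventilated replicate 1 (adjusted p between 0.0737 and 0.113). In the authors' table Slc12a4 was 0.46 in wild-type lungs (limma adjusted p = 0.600), and the difference of the effect was 0.96 (adjusted p = 0.549). Tsc22d3, Fxyd3, Slc12a4 and Hsd11b2 were named after their values were seen.

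**Figure D4:**
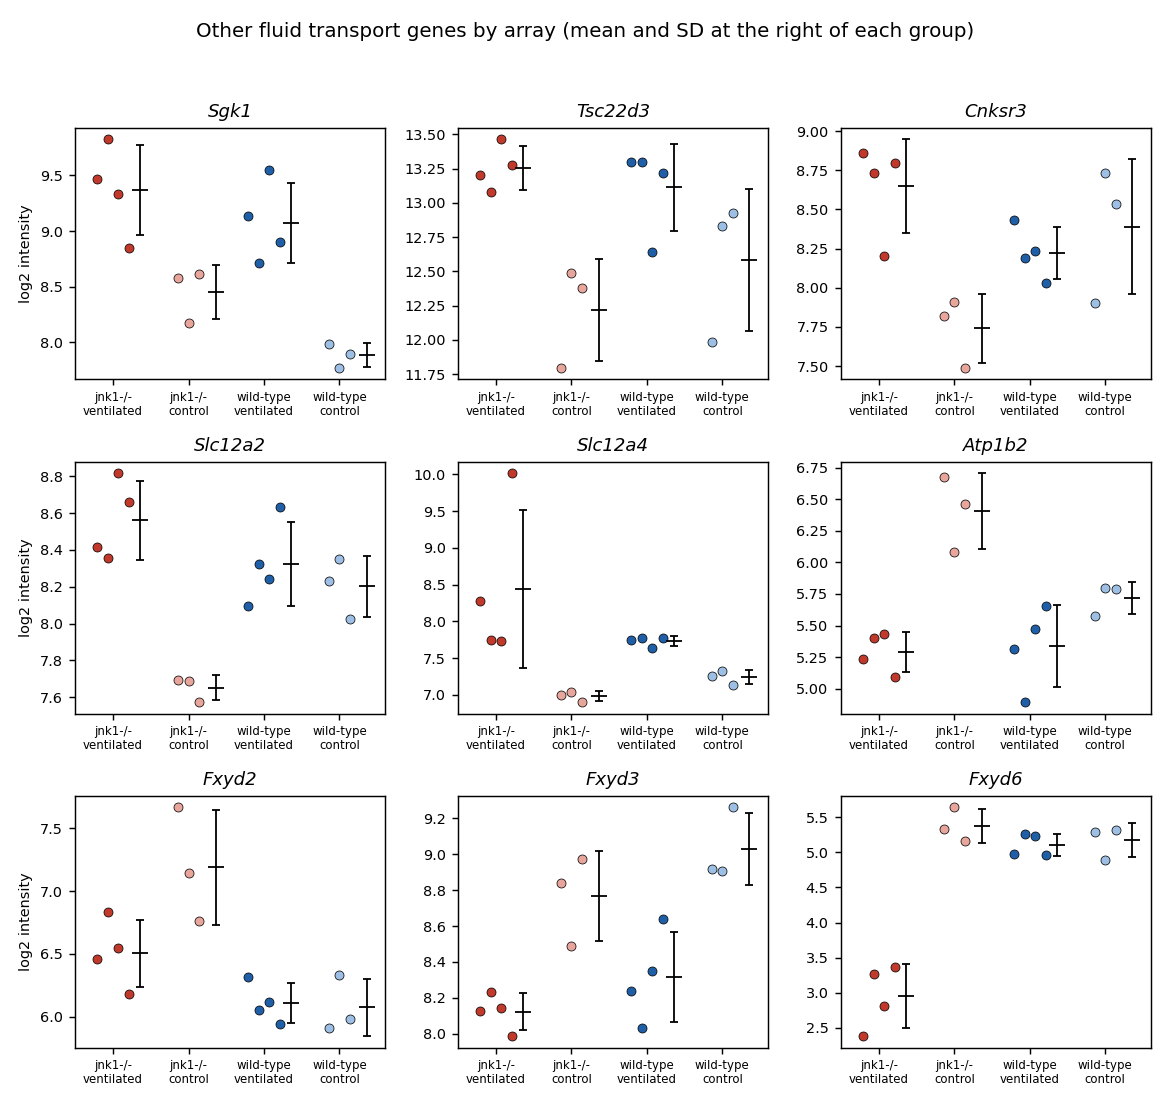
Log2 intensity (vertical axes, a separate scale for each gene) in each group of mice (horizontal axes) of the 9 other fluid transport genes that were called in a comparison. Points are single arrays, and the bar beside them is the mean ± SD (n = 4 ventilated and 3 control mice per genotype). Fxyd6 lies between 2.38 and 3.37 on the jnk1-/- ventilated arrays, below the other 10 arrays.

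Markers of tissues other than lung parenchyma moved with the jnk1-/- controls, in which Scnn1a and Scnn1b were at their lowest. The 13 skeletal muscle genes summed to a log2 level of 8.21 to 8.58 in jnk1-/- ventilated lungs, 13.13 to 13.66 in jnk1-/- controls, 8.41 to 9.14 in wild-type ventilated lungs and 8.70 to 9.02 in wild-type controls. Of these genes, 12 were called lower on ventilation of jnk1-/- lungs, and 10 were called higher in jnk1-/- than in wild-type controls. The 13 genes of squamous epithelium summed to 9.57 to 9.98 in jnk1-/- ventilated lungs, 12.00 to 12.96 in jnk1-/- controls, 9.03 to 9.73 in wild-type ventilated lungs and 8.98 to 9.26 in wild-type controls, with 7 called lower on ventilation of jnk1-/- lungs and 7 higher in jnk1-/- than in wild-type controls. Myh4, Casq1 and Myl1 of the muscle list lay at the authors' floor on all arrays of both wild-type groups, and Ivl of the squamous list on all arrays of both wild-type groups and of the jnk1-/- controls. Every comparison with the jnk1-/- controls, the calls of Atp1b1, Nedd4l, Scnn1a and Scnn1b among them, rests on these 3 arrays, and the part of this tissue in them was not tested.

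Markers of lung cell types and of neutrophils were set beside these. The type 1 alveolar genes summed to 13.66 to 13.93 in jnk1-/- ventilated lungs, 14.08 to 14.41 in jnk1-/- controls, 13.36 to 13.70 in wild-type ventilated lungs and 13.99 to 14.20 in wild-type controls. Their medians per array were 9.72 to 10.08, 9.73 to 10.03, 9.82 to 10.25 and 10.68 to 10.75 in the same order. By these medians the jnk1-/- groups overlapped, and only the wild-type controls lay apart. On ventilation, 2 of the 9 were called lower in jnk1-/- lungs and 1 in wild-type lungs, where 5.06% and 1.23% of all probes were. Between controls 0 were called by limma, and 3 had an unadjusted p under 0.05, against 21.4% of all probes. The type 2 alveolar genes summed to 15.17 to 15.47 in jnk1-/- ventilated lungs and 15.08 to 15.53 in jnk1-/- controls. They summed to 14.97 to 15.15 in wild-type ventilated lungs and 14.75 to 15.06 in wild-type controls, so by this sum the genotypes did not overlap in either state. By the median log2 level per array, they lay at 10.47 to 10.83 in jnk1-/- ventilated lungs and 11.13 to 11.26 in jnk1-/- controls. In wild-type lungs these medians were 10.13 to 10.53 with ventilation and 9.57 to 10.25 in controls, so the ventilated genotypes overlapped. Of these 10 genes, 1 was called higher in jnk1-/- than in wild-type controls and 1 lower in jnk1-/- ventilated than in control lungs, where 2.21% and 5.06% of all probes were. Of 10 airway genes, 3 were called lower in jnk1-/- and 1 in wild-type lungs on ventilation, where 5.06% and 1.23% of all probes were. The airway genes summed to 14.97 to 15.37 in jnk1-/- ventilated, 15.53 to 15.79 in jnk1-/- control, 14.80 to 15.53 in wild-type ventilated and 15.56 to 15.61 in wild-type control lungs. Their median log2 level per array was 8.95 to 9.58, 11.03 to 11.10, 10.22 to 11.02 and 11.31 to 11.68 in the same order. Neutrophil markers rose on ventilation in both genotypes, with 6 of 10 called higher in each, where 7.04% (jnk1-/-) and 2.20% (wild-type) of all probes were. They summed to 13.52 to 14.99 in jnk1-/- ventilated, 10.34 to 10.90 in jnk1-/- control, 14.12 to 14.73 in wild-type ventilated and at most 12.12 in wild-type control lungs. Of 13 endothelial genes, 1 was called higher in jnk1-/- and 1 lower in wild-type lungs on ventilation, where 7.04% and 1.23% of all probes were. Of 3 measured red blood cell genes none was called by limma (0 or 1 at an unadjusted p under 0.05 in each comparison).

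**Figure D5:**
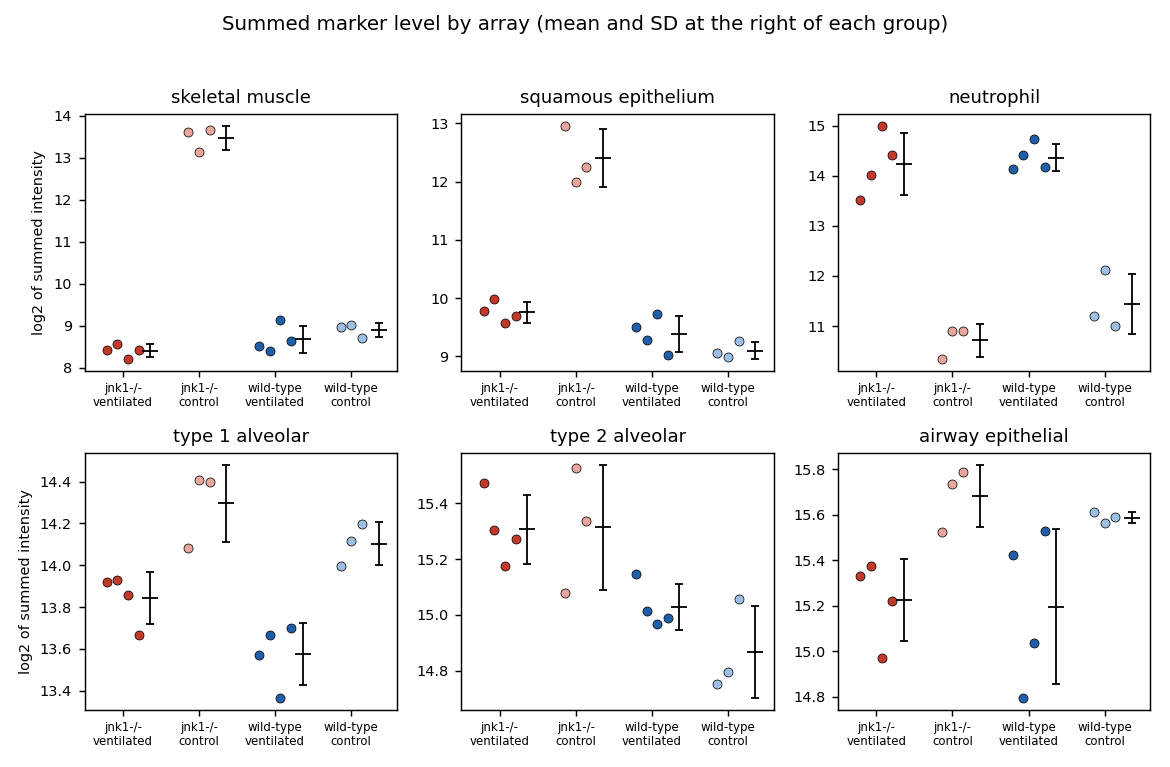
Log2 of the summed intensity (vertical axes, a separate scale for each list) of 6 marker lists in each group of mice (horizontal axes). Points are single arrays, and the bar beside them is the mean ± SD (n = 4 ventilated and 3 control mice per genotype). For skeletal muscle, jnk1-/- controls span 13.13 to 13.66, above all other arrays, which reach at most 9.14.

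For each called gene, the genes with the most alike pattern over the 14 arrays were found by Pearson's r, as a description of arrays that fall into 4 groups. Atp1b1 was most like Zfand2a (r = 0.956, Spearman's rho = 0.956) and Gnai3 (r = 0.955, rho = 0.938). Nedd4l was most like Rras2 (r = 0.941, rho = 0.925) and Zfp330 (r = 0.940, rho = 0.846), Scnn1a most like Washc2 (r = 0.954, rho = 0.943) and Wdr60 (r = 0.942, rho = 0.815), and Scnn1b most like Plekha1 (r = 0.893, rho = 0.811) and Zc3h8 (r = 0.855, rho = 0.873). No gene of these 8 was shared between the called genes.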

How the data were processed

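Lung RNA was hybridized to single-colour CodeLink UniSet 20K arrays, 1 per animal. The authors deposited log2 intensities of 19621 probes per array with no normalization between arrays, and a table of log2 values that they normalized by cyclic loess, in which 24.5% of values sit at a floor of 3.12. Quality flags were not used here. Probes were named from the platform annotation (15353 with 1 gene, 91 with several, 4177 with none).

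From the deposited log2 values, curves were fitted for each pair of arrays in turn (cyclic loess, span 0.7, 3 iterations, in R 4.3.3), with values at the lowest deposited value (-6.86) left out of the curves and values under the 1st percentile (-0.65) set to it. Array medians were 4.98 to 6.37 before and 5.74 to 5.87 after. Group means of all 14 arrays were fitted in limma 3.58.1, with p-values of all probes adjusted by Benjamini and Hochberg and a threshold of 0.05; the number of arrays limits the precision. A gene of several probes was read by its brightest. Promoters were searched in Python 3.11.15 with pandas 2.3.3, and figures drawn in matplotlib 3.10.9. Named genes were the 9 members, up to 4 called genes of the fluid transport lists per comparison by adjusted p, Mapk8 and the 2 genes most like each called member. Hsd11b2 was added because the paper lists it. The steps were tested on simulated data. Members and lists were chosen with earlier results of these data known. Alternatives for scaling, test, arrays, filter, floor, block and weights were tried.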

Additional observations from a re-analysis of the deposited data

Results flagged for a closer look

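Scnn1b was flagged because its ventilated arrays lay above their controls in jnk1-/- lungs and below them in wild-type lungs. The difference of the ventilation effect, jnk1-/- minus wild-type, was 0.93 on the log2 scale (adjusted p = 0.111 from limma), which missed the threshold.

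Fxyd6 was flagged because the ventilation effect differed between the genotypes by a test of that difference, -2.36 on the log2 scale, jnk1-/- minus wild-type (adjusted p = 0.0199 from limma), with 3 of 4 jnk1-/- ventilated arrays at the authors' floor. The size is therefore not exact, and in the authors' table, which holds these arrays at its floor, it was -1.99.

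Tsc22d3 was flagged because 1 wild-type ventilated array lay at 12.64, with its nearest neighbour at 13.22 and the highest at 13.30, in 1 of 36 groups of 4 arrays checked; chance flags about 1 in 20 groups.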

How the results depend on the processing

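Of 949 values of the 9 genes under alternative settings, 900 stayed on their side of the threshold with no called value changing sign, 23 passed it newly, 24 missed it and 2 turned. With wild-type control replicates 2 and 3 left out of the authors' table, chosen after seeing the data, Cftr was -1.82 on ventilation of wild-type lungs and -1.92 between controls, against 0.30 and 0.17. For the difference of the effect, Cftr was then 2.57, against 0.44. That fit holds 1 wild-type control array, so no counts are given for it. On ventilation of jnk1-/- lungs, the count of called genes was 3, and it was 0 with the methods' t-test, 1 in a fit of only the arrays compared, 2 with quantile normalization, fast cyclic loess or median centring, 4 with dim probes left out or array weights, and 2 to 2 without 1 array. On ventilation of wild-type lungs it was 0, and it was 1 with quantile normalization, fast cyclic loess, median centring, the methods' t-test or no floor. With the authors' table, dim probes left out or array weights it was 2, and without 1 array 0 to 1. Between controls it was 1, and it was 2 with quantile normalization, fast cyclic loess, median centring, the authors' table or array weights. With the methods' t-test or only the arrays compared it was 0, and without 1 array 0 to 2. For the difference of the effect it was 0, and it was 1 with the authors' table or array weights (Scnn1b in each), and 0 to 0 without 1 array. After ventilation it was 0 throughout, without 1 array too. The causes were not tested. Of the 50 further genes, the count over these settings was 0 to 10 against 8 on ventilation of jnk1-/- lungs, 0 to 7 against 1 on ventilation of wild-type lungs, 0 to 3 against 1 between controls, 0 to 1 against 1 after ventilation and 0 to 4 against 1 for the difference of the effect.

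Same-numbered arrays did not deviate together (correlations of -0.05 to 0.09 in 19 pairs, and -0.12 to 0.13 in 54 pairs of other numbers). No pairing by number was thus seen, although so few arrays per group cannot exclude it. With the replicate number as a block, the count between controls was 0 (Scnn1b adjusted p = 0.0593), and on ventilation of jnk1-/- lungs Scnn1a missed the threshold (adjusted p = 0.119), and Atp1b1 and Nedd4l were called. Of the 50 further genes, 4 were called on ventilation of jnk1-/- lungs with the block, against 8 without it, and the Fxyd6 difference of the effect missed the threshold (adjusted p = 0.0716).

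Median centring moved the median of all probes by -0.13 in wild-type ventilation, -0.18 between controls and 0.17 in the difference of the effect, and the authors' table by -0.11, -0.12 and 0.13. The share of higher among all calls was 64.0% in wild-type ventilation, and 53.6%, 43.7% and 48.7% with fast cyclic loess, median centring and the authors' table. Between controls it was 55.0%, and 40.9%, 42.5%, 30.3% and 44.8% with quantile normalization, fast cyclic loess, median centring and the authors' table. For the difference of the effect it was 48.0%, and 58.9% with median centring.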
